A study of Mus musculus with 6 samples.

Results

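Interferon-stimulated genes are the genes that cells switch on when interferons bind their receptors, and 38 of them were followed here in cultured mouse macrophages with and without the transcription factor c-Maf. The 38 genes were chosen by name. All 38 were present on the array, on 53 probes, and each gene was read from its probe of highest mean signal. The signal of 35 of the 38 was well above background on at least 2 of 5 arrays, and these 35 were tested among 20252 genes and unnamed features, out of 34760 on the array. The other 3 were Ifit1, Cxcl10 and Ddx60.

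Groups of 3 samples each were compared, both of cells that the labels call polarized M2-like BMM and derive from fetal liver. One group came from chimeric mice given WT fetal liver and the other from chimeric mice given c-Maf KO fetal liver. Both were grown with M-CSF, the macrophage growth factor, at 10 ng per ml, and the culture description names no interferon or microbial agent. Total RNA was hybridised to single-colour Agilent arrays, and the labels do not say whether replicates were separate mice, whether any host cells remained in the chimeras, or how the KO allele was made, so the p-values reflect sample-to-sample spread that may be technical. The ages of the animals are not in the labels.

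Type I interferons bind the Ifnar1 and Ifnar2 receptor chains, which act through the kinases Jak1 and Tyk2. These phosphorylate STAT factors, among them Stat2, which joins Irf9 in a complex that binds the interferon-stimulated response element in target promoters. Interferon-gamma acts through Ifngr1 and Ifngr2, and many of its target promoters carry the gamma-activated site. Macrophages both sense nucleic acids that trigger interferon and respond to it, and a low tonic interferon signal is known to keep many of these genes expressed in resting macrophages.

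Promoter windows from 250 bases before to 50 after the gene start (RefSeq, GRCm38.p6) were matched by symbol for 27 of the 38 genes. The core of the interferon-stimulated response element, 2 copies of GAAA with any 2 bases between them, on either strand, was present in the windows of 16 of these 27 genes (59.3%), against 3.99% of 27025 genes with a window. The gamma-activated site, TTC and GAA with any 3 bases between them (both strands, as it reads alike on each), was present in 7 of 27 (25.9%), against 9.55% of genes. The core of the Maf recognition element, TGCTGA on either strand, was present in 5 of 27 (18.5%), against 21.7% of genes. A match describes letters and is not a shown binding site. The stretches below end at or before the gene start and come from 5 of the genes with a response element core. Capitals mark the response element core on either strand, and neighbouring matches can overlap. Gbp2, Gbp5 and Rsad2 were taken for the size of their difference or range. Bst2 and Eif2ak2, whose groups also lay apart, held the core too and are not shown. Gbp3 and Isg15 were added after their values and matches were seen, Gbp3 as the third guanylate-binding protein gene of the list and Isg15 as a gene with 3 overlapping matches.
Gbp2, chr3:142620584-142620662, plus strand: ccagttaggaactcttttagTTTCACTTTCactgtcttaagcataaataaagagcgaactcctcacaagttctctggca
Gbp3, chr3:142559979-142560043, plus strand: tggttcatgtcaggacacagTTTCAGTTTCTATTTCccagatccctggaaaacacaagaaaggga
Gbp5, chr3:142496749-142496838, plus strand: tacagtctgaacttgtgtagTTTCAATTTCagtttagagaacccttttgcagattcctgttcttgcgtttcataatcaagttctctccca
Rsad2, chr12:26456503-26456592, minus strand: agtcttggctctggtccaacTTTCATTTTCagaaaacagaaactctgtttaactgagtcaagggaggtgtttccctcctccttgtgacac
Isg15, chr4:156200819-156200916, minus strand: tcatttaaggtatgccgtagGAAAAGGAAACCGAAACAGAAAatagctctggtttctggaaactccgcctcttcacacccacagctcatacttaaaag
The windows of Oasl1, Ifi44 and Ifit2, which were also large in difference or range, held no match to the response element core, and nothing follows from that about the factor. Among measured genes the median difference between the groups was 0.0083 (log2) for the 13 with the response element core and 0.043 for the 11 with a window and no match. For the gamma-activated site it was 0.13 for 7 genes with a match and -0.0076 for 17 without, and for the core of the Maf recognition element -0.033 for 3 with and 0.043 for 21 without.

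Maf itself was far lower in every c-Maf KO sample, which checks the labels. Its log2 ratios to the probe's median over the 6 samples were 1.92, 1.98 and 2.03 in the WT samples (replicates 1, 2 and 3 in order, as in all lists below) and -2.22, -2.36 and -1.92 in the c-Maf KO samples, a difference of -4.14 ± 0.12 (SE, limma, Benjamini-Hochberg adjusted p = 0.000558). The probe lies at chr8:118227736-118227795 (mm9), and whether this is inside the deleted part is not stated in the labels. All ratios below are on this log2 scale, and each difference is c-Maf KO minus WT over 3 against 3 samples with its SE from limma. A second estimate uses the 5 arrays with a scanner file, that is all WT samples and replicates 2 and 3 of c-Maf KO, and so shares samples with the first.

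None of the 35 measured genes passed the test at an adjusted p of 0.05 in either estimate. The lowest adjusted p was 0.239 over the 6 samples and 0.387 on the 5 arrays, both for Gbp2. Across all 20252 features, 0.0346% were called in each estimate, which is 7 features. At an unadjusted p under 0.05, 6 of the 35 passed over the 6 samples, where 12.6% of all features did, and 1 of 35 on the 5 arrays, where 11% did. The differences were positive for 17 and negative for 18 of the 35, with a median of -0.0063, against 0.0018 over all features. On the 5 arrays 16 were positive and 19 negative, with a median of -0.052 against -0.010. Without c-Maf KO replicate 3 the median over the 6 samples turned to 0.064, and no gene was called.

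The 95% interval of the difference lay within 2-fold in both directions for 33 of 35 genes, the exceptions being Oasl1 and Ifi44. It lay within 1.5-fold for 24, and its median width was 0.53 log2 units. The plot of differences shows the intervals gene by gene.

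**Figure D1:**
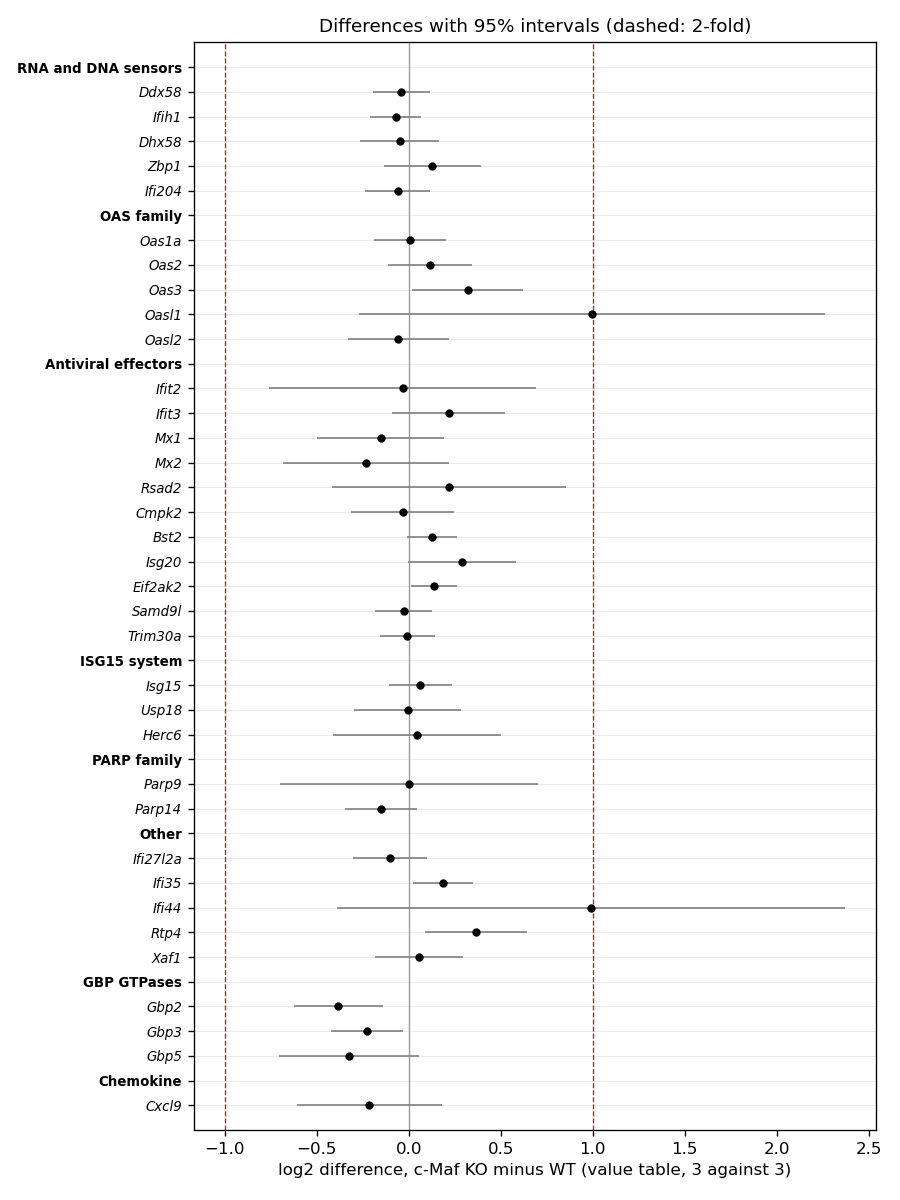
Differences in log2 between c-Maf KO and WT (x axis, 3 against 3 samples) for the 35 measured genes, grouped by role on the y axis; points are the limma estimates and bars their 95% intervals, and dashed lines mark 2-fold. The intervals of Oasl1 and Ifi44 reach past 2-fold, and those of the other 33 genes do not.

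The samples of the 2 groups did not overlap for 8 of the 35 genes, 5 with every c-Maf KO sample above every WT sample (Bst2, Isg20, Eif2ak2, Ifi35 and Rtp4) and 3 with every c-Maf KO sample below (Gbp2, Gbp3 and Gbp5). Over all features, 11.1% lay apart with c-Maf KO higher and 8.86% with c-Maf KO lower, or 20% in either direction. Among the 35 the shares were 14.3%, 8.57% and 22.9%, near the background. These 8 genes are described first with their values, then the others by role. The plot of ratios by sample shows all 35.

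**Figure D2:**
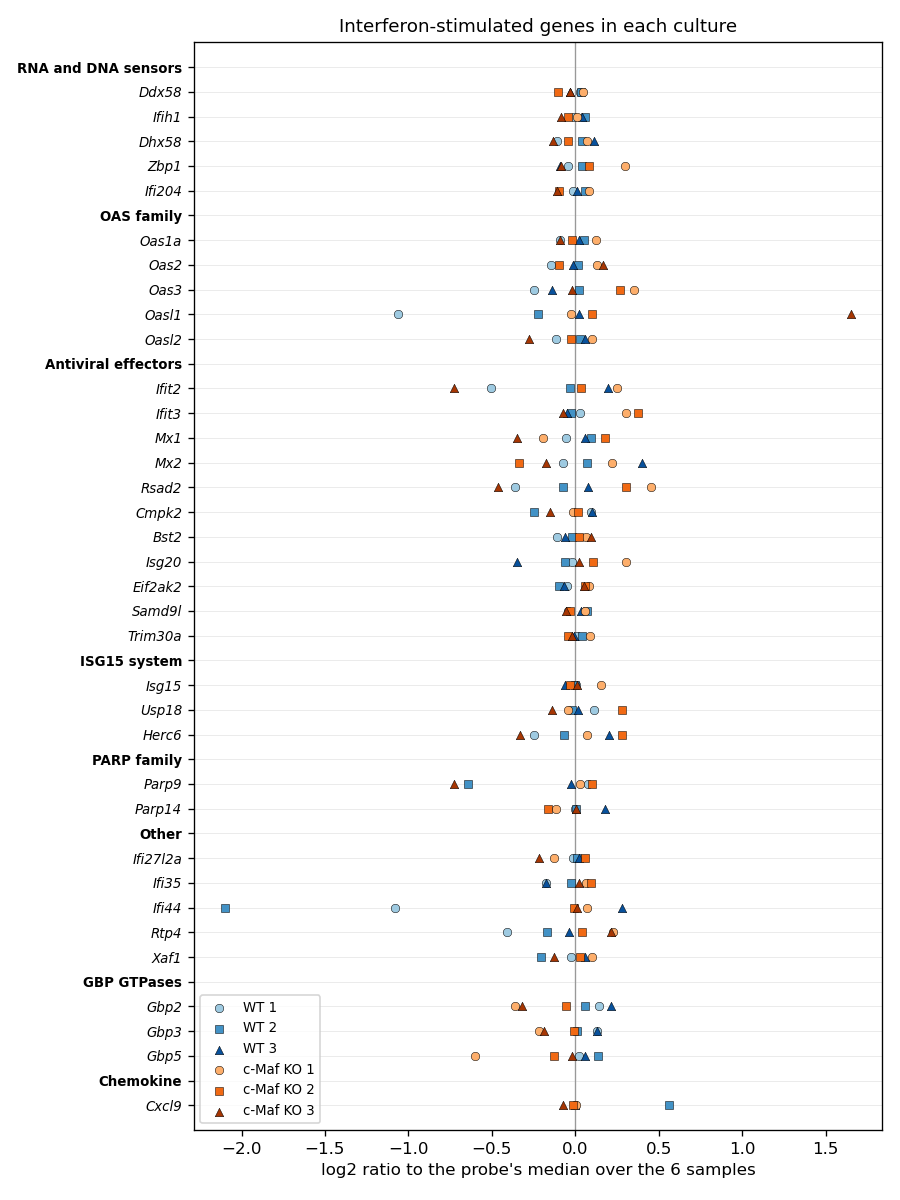
Log2 ratio of each measured gene to its probe's median over the 6 samples (x axis), by role (y axis); blue symbols are WT and orange symbols c-Maf KO replicates 1 to 3, each symbol 1 sample. The groups lie apart for 8 genes, among them all 3 guanylate-binding protein genes, and single samples stand far out for Oasl1 and Ifi44.

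The guanylate-binding proteins are large GTPases, strongly induced by interferon-gamma, that coat the vacuoles of intracellular microbes. All 3 in the list lay lower in every c-Maf KO sample than in every WT sample. Gbp2 (probe at chr3:142300719-142300778, mm9) read 0.14, 0.058 and 0.21 in WT and -0.36, -0.058 and -0.32 in c-Maf KO, a difference of -0.38 ± 0.10 (adjusted p = 0.239). Gbp3 (chr3:142236032-142236091) read 0.13, 0.010 and 0.13 in WT and -0.22, -0.010 and -0.19 in c-Maf KO, a difference of -0.23 ± 0.079 (adjusted p = 0.335). Gbp5, which also promotes inflammasome assembly, read 0.022, 0.14 and 0.060 in WT and -0.60, -0.13 and -0.022 in c-Maf KO (chr3:142181426-142181485), a difference of -0.32 ± 0.16 (adjusted p = 0.457). In each of the 3 genes c-Maf KO replicate 1 was the lowest sample, and in Gbp2 and Gbp3 c-Maf KO replicate 2 lay nearest to WT. On the 5 arrays, which leave out c-Maf KO replicate 1, the differences were -0.33, -0.19 and -0.15 in the same order. For Gbp5 much of the 6-sample difference thus rested on that sample. Its second probe gave -0.095 over the 6 samples, and the mean of both probes -0.21.

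Other family members were looked at after these values were seen. Of 8 guanylate-binding protein genes measured on the array, the remaining 5 had groups that overlapped: Gbp6 at -0.31, Gbp7 at -0.084, Gbp9 at 0.017, Gbp10 at -0.12 and Gbp11 at 0.0016. Gbp2, Gbp3, Gbp5 and Gbp7 lie together on chromosome 3, and the others on chromosome 5. These genes are similar in sequence, and how far their probes cross-hybridise was not tested.

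Among the 11 measured antiviral effectors, 3 lay apart with c-Maf KO higher (27.3%, against 11.1% of all features). Bst2 (tetherin, which holds budding virions at the cell surface and also marks plasmacytoid dendritic cells) read -0.11, -0.023 and -0.064 in WT and 0.063, 0.023 and 0.10 in c-Maf KO, a difference of 0.13 ± 0.056 (adjusted p = 0.43). The 5 other markers of plasmacytoid dendritic cells, all measured, had negative differences for 4, and their summed signal in units of the array's 75th percentile was 202 to 216 in WT and 184 to 192 in c-Maf KO; their part in the Bst2 values was not tested. Isg20, an exonuclease of single-stranded RNA, read -0.022, -0.061 and -0.35 in WT and 0.31, 0.10 and 0.022 in c-Maf KO, a difference of 0.29 ± 0.12 (adjusted p = 0.403). Eif2ak2 (PKR, the kinase that stops translation on double-stranded RNA) read -0.052, -0.10 and -0.070 in WT and 0.081, 0.055 and 0.052 in c-Maf KO, a difference of 0.14 ± 0.052 (adjusted p = 0.365). A second probe of Isg20 gave 0.30.

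Rtp4, a receptor-transporting chaperone of the Golgi, had the largest positive difference among the genes whose samples lay apart. It read -0.41, -0.17 and -0.039 in WT and 0.22, 0.039 and 0.21 in c-Maf KO, a difference of 0.37 ± 0.11 (adjusted p = 0.287). Ifi35, a leucine-zipper protein known to modulate RIG-I signalling, read -0.17, -0.024 and -0.17 in WT and 0.066, 0.091 and 0.024 in c-Maf KO, a difference of 0.18 ± 0.066 (adjusted p = 0.344). Within the spread of 3 samples neither passed the test over all features.

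Among the 5 measured sensors the differences ran from -0.072 to 0.13. Ddx58 (RIG-I) differed by -0.040 (95% interval -0.20 to 0.12) and Ifih1 (MDA5) by -0.072 (-0.21 to 0.067), and these helicases sense viral RNA in the cytosol. Dhx58 (LGP2), which tunes both, differed by -0.049 (-0.26 to 0.16). Zbp1, the sensor of Z-form nucleic acids, differed by 0.13 (-0.14 to 0.39), with c-Maf KO replicate 1 the highest sample at 0.30, and by 0.028 without that sample. Ifi204, a DNA-binding protein of the PYHIN family, differed by -0.061 (-0.24 to 0.12), and its second probe gave 0.059. The WT and c-Maf KO samples overlapped for all 5, and 4 of the 5 differences were negative. Ddx60, a helicase that assists RIG-I, was well above background on 1 of 5 arrays and gives no difference.

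The OAS family includes the enzymes that make the oligoadenylate messenger that activates RNase L. Of the 5 genes of the family in the list, 4 had positive differences, and all 5 had overlapping samples. Oas1a differed by 0.0083 (95% interval -0.19 to 0.20), with 0.15 at its second probe, and Oas2 by 0.11 (-0.11 to 0.34). Oas3 read -0.25, 0.022 and -0.14 in WT and 0.35, 0.27 and -0.022 in c-Maf KO, a difference of 0.32 ± 0.12 (adjusted p = 0.37), with c-Maf KO replicate 3 just below WT replicate 2. Oasl2 differed by -0.057 (-0.33 to 0.22). Oasl1, known in mouse to limit translation of Irf7, had the largest difference of the list, just above that of Ifi44. It read -1.06, -0.22 and 0.024 in WT and -0.024, 0.10 and 1.65 in c-Maf KO, a difference of 1.00 ± 0.52 (adjusted p = 0.482). The lowest sample, WT replicate 1, and the highest, c-Maf KO replicate 3, stood apart, and the other 4 samples lay between -0.22 and 0.10. Without c-Maf KO replicate 3 the difference was 0.46.

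Among the remaining effectors the samples of the groups overlapped in every case. The IFIT proteins bind viral RNA. Ifit2 read -0.50, -0.033 and 0.19 in WT and 0.25, 0.033 and -0.72 in c-Maf KO, with its lowest sample in one group and its next lowest in the other, and a difference of -0.033 (95% interval -0.76 to 0.69). Ifit3 differed by 0.22 (-0.091 to 0.52), with c-Maf KO replicate 3 below all WT samples. Ifit1 was not well above background on any of the 5 arrays. Rsad2 (viperin, which makes a chain-terminating nucleotide) read -0.36, -0.075 and 0.075 in WT and 0.45, 0.31 and -0.47 in c-Maf KO, a difference of 0.22 ± 0.26 (adjusted p = 0.75). The highest and the lowest of its 6 samples were both c-Maf KO, and leaving out either of them (replicates 1 and 3) took the difference to 0.040 and 0.50. Cmpk2, the nucleotide kinase encoded next to Rsad2, differed by -0.034 (-0.31 to 0.24), and its second probe by 0.13.

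The dynamin-like GTPases Mx1 and Mx2, which block nucleocapsids of several viruses, differed by -0.15 (95% interval -0.50 to 0.19) and -0.23 (-0.68 to 0.22). Samd9l, an inhibitor of translation, differed by -0.029 (-0.18 to 0.13). Trim30a, known as a brake on Toll-like receptor signalling, differed by -0.0076 (-0.16 to 0.14). The intervals of all 4 include 0. Leaving out 1 sample at a time gave -0.30 to -0.039 for Mx1 (without c-Maf KO replicates 2 and 3 in turn) and -0.39 to -0.099 for Mx2 (without c-Maf KO replicate 1 and WT replicate 3 in turn).

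The ISG15 system attaches the ubiquitin-like protein Isg15 to other proteins. Isg15 read 0.0033, -0.0033 and -0.061 in WT and 0.15, -0.031 and 0.0075 in c-Maf KO, a difference of 0.063 ± 0.069 (adjusted p = 0.727), and its second probe gave 0.077. Without c-Maf KO replicate 1 the difference was 0.0086. Its highest sample was c-Maf KO replicate 1, and the other 2 c-Maf KO samples lay among or close to the WT samples. Usp18, the protease that removes Isg15 and also restrains the type I receptor, differed by -0.0063 (95% interval -0.30 to 0.28). Herc6, the ISG15 ligase of mouse, differed by 0.043 (-0.41 to 0.50), and its second probe by -0.12. The ADP-ribosyltransferase-like proteins Parp9 and Parp14 differed by 0.0022 (-0.70 to 0.70) and -0.15 (-0.35 to 0.043). For Parp9 1 sample of each group was low, WT replicate 2 at -0.65 and c-Maf KO replicate 3 at -0.72.

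Of the other genes, Ifi27l2a differed by -0.10 (95% interval -0.31 to 0.10), and Xaf1, a partner of the apoptosis inhibitor XIAP, by 0.056 (-0.18 to 0.29). Ifi44 read -1.08, -2.10 and 0.28 in WT and 0.072, -0.0096 and 0.0096 in c-Maf KO, a difference of 0.99 ± 0.56 (adjusted p = 0.517). The 3 c-Maf KO samples lay within -0.0096 to 0.072, while the WT samples were further apart than for any other of the 35 genes, and the probe was well above background on only 2 of 5 arrays, 1 of each group. Without WT replicate 2 its difference was 0.42. Cxcl9, which with Cxcl10 draws cells bearing the receptor Cxcr3, was well above background on 3 of 5 arrays and differed by -0.21 (-0.61 to 0.18), with WT replicate 2 at 0.56 and the other 5 samples between -0.072 and 0.00086. Without WT replicate 2 it differed by -0.028. Cxcl10 was not well above background on any array.

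Variation between cultures was seen in both groups. The median log2 ratio over the 35 genes was -0.042, 0.010 and 0.021 in the WT samples and 0.070, 0.017 and -0.087 in the c-Maf KO samples, so the highest and the lowest culture were both c-Maf KO. Replicate 1 of c-Maf KO held the highest value for 14 of 35 genes (40%), against 25.4% of all features, and replicate 3 of c-Maf KO the lowest for 15 (42.9%), against 25.01%. Replicate 1 of c-Maf KO lay above replicate 3 for 28 of 35 genes (80%), where 62.3% of all features did. The 7 exceptions were Gbp2, Gbp3, Gbp5, Oasl1, Oas2, Bst2 and Parp14. Genes of one culture share its RNA and array, so these shares describe the cultures and carry no test.

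**Figure D3:**
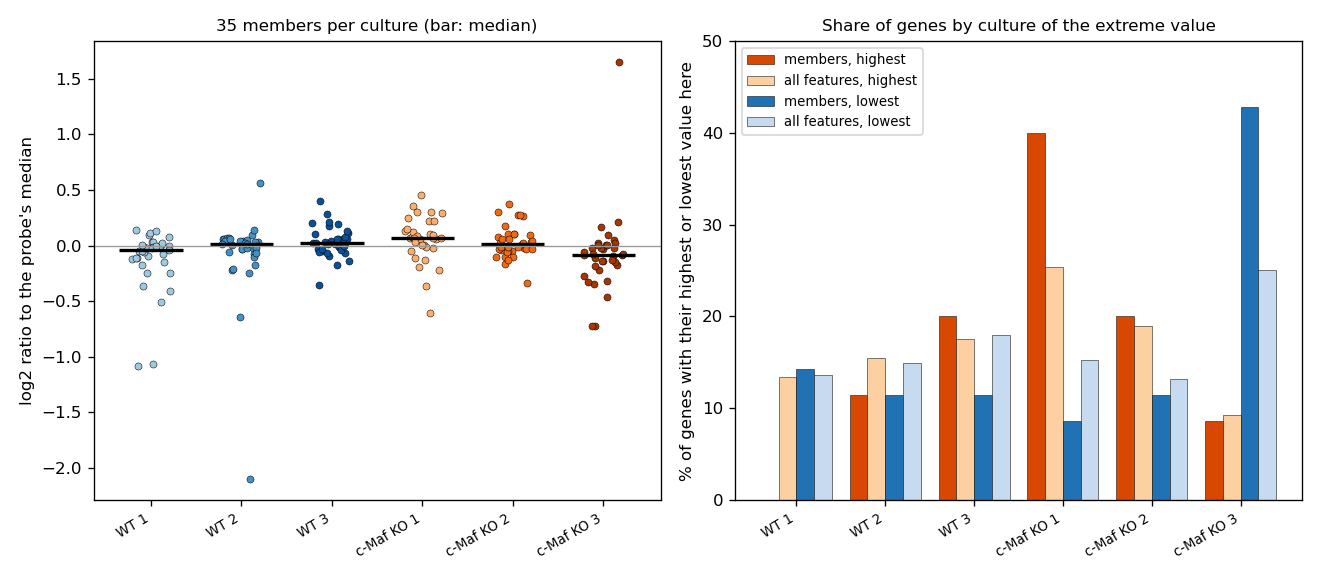
Left, log2 ratios of the 35 genes in each of the 6 cultures (y axis), with a bar at the median; right, the percentage of the 35 genes and of all features whose highest or lowest value fell in each culture. Replicate 1 of c-Maf KO holds the highest value for 40% of the 35 genes and replicate 3 of c-Maf KO the lowest for 42.9%.

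Over the 6 cultures the genes varied together only in part. Of 595 pairs of genes, 60.3% had a positive Pearson correlation, with a median of 0.14, and 6.22% were above 0.8. Ifit2 and Rsad2, both of low signal (mean intensity 43.7 and 43.1), had the highest mean correlation with the others, at 0.35 and 0.34. Oasl2 and Oas1a followed. Gbp5 had the lowest at -0.27, and Oasl1 was next at -0.15. These correlations rest on 6 cultures, in each of which the genes share array and scaling. No correlations over all features stand beside them, so they cannot be read as particular to these genes. The range over the 6 samples exceeded 0.5 for 14 of 35 genes (40%), against 31.4% of all features. The median SD among WT samples was 0.086 for the 35 genes and 0.095 for all features, and among c-Maf KO samples 0.12 and 0.11.

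The wider pathway was read from 6 lists, of interferons, receptors with their kinases and STATs, IRF factors, sensors with adaptors, feedback regulators and further stimulated genes. Of 159 listed genes, 145 were on the array and 130 were measured. None of the 130 passed the test in either estimate, where 0.0346% of all features did, and the lowest adjusted p was 0.136. At an unadjusted p under 0.05, the 6-sample test passed 25 of the 130, where it passed 12.6% of all features, and the 5-array test passed 27, where it passed 11%. The differences were positive for 60 and negative for 70, with a median of -0.022, and groups lay apart for 16 upward and 19 downward (26.9%), against 20% of all features.

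Of 21 listed interferon genes, 15 were on the array and 10 were measured, 7 with positive and 3 with negative differences. Ifnb1 and Ifng were not well above background on any of the 5 arrays. Ifna1 differed by 0.27 ± 0.081 (adjusted p = 0.283), Ifna5 by 0.32 ± 0.13 (adjusted p = 0.372) and Ifnl3 by 0.24 ± 0.090 (adjusted p = 0.365), each with all c-Maf KO samples above all WT samples, as for 11.1% of all features. The interferon-alpha genes are near-identical copies, so which gene a probe reads is uncertain.

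Of 11 measured receptor and signalling genes, 1 had groups that lay apart (9.09%, against 20% of all features). This was Ifngr1, at 0.059, 0.083 and 0.033 in WT and -0.033, -0.069 and -0.093 in c-Maf KO, a difference of -0.12 ± 0.053 (adjusted p = 0.415). The type I receptor chains Ifnar1 and Ifnar2 differed by -0.20 (95% interval -0.65 to 0.25) and 0.068 (-0.41 to 0.54), and Ifngr2 by -0.012 (-0.22 to 0.19). The kinases Jak1 and Tyk2 differed by -0.016 and 0.064, and Stat2 by 0.075.

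All 9 IRF genes were measured, and their samples overlapped in each. Their differences were negative for 7 of 9 over the 6 samples and for 9 of 9 on the 5 arrays, with medians of -0.061 and -0.086. Over all features 49.3% and 53.0% were negative, with medians of 0.0018 and -0.010. None of the IRF genes was called. Irf1 differed by -0.13 over the 6 samples and by -0.27 on the 5 arrays, since c-Maf KO replicate 1 was its highest sample at 0.18. Irf3, which is activated by the sensors, differed by -0.021, Irf9 by 0.024, and Irf7, which amplifies interferon-alpha production, by 0.12 with a 95% interval of -0.45 to 0.70.

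Of 19 measured sensor and adaptor genes, groups lay apart for 1 upward (5.26%) and 4 downward (21.1%), against 11.1% and 8.86% of all features. Ticam2, the adaptor that links Toll-like receptor signalling to Trif, differed by -0.40 ± 0.14 (adjusted p = 0.348). The ligase Traf6 differed by -0.31 ± 0.077 (adjusted p = 0.229) and the kinase Ikbke by -0.27 ± 0.14 (adjusted p = 0.477). Among 16 feedback genes, groups lay apart for 2 upward (12.5%) and 2 downward (12.5%), against 11.1% and 8.86% of all features. Socs3, an inhibitor of cytokine receptors, lay apart upward. It read -0.078, -0.23 and -0.35 in WT and 0.078, 0.15 and 0.29 in c-Maf KO, a difference of 0.39 ± 0.10 (adjusted p = 0.227). Pias1 at -0.16 and the phosphatase Ptpn6 at -0.13 lay apart downward. Socs1, the inhibitor of interferon receptor kinases, differed by -0.15 with overlapping groups.

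The largest differences were among 65 further stimulated genes, of which 10 lay apart upward (15.4%) and 12 downward (18.5%), against 11.1% and 8.86% of all features. Apol9b was well above background on 1 of 3 WT arrays and on both c-Maf KO arrays, so its WT values lie near background. It read -0.42, -0.60 and -0.24 in WT and 0.24, 0.68 and 0.55 in c-Maf KO, a difference of 0.91 ± 0.14 (adjusted p = 0.136). Ch25h, the enzyme that makes an antiviral oxysterol, read -0.13, -0.91 and -0.95 in WT and 0.52, 0.13 and 0.57 in c-Maf KO, a difference of 1.07 ± 0.25 (adjusted p = 0.227). Ifitm1, which restricts virus entry at membranes, read 0.17, 0.16 and 0.76 in WT and -0.49, -0.16 and -0.50 in c-Maf KO, a difference of -0.74 ± 0.19 (adjusted p = 0.243). These 3 genes differed in both directions, and the plot of the pathway lists shows the spread within each list around 0.

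**Figure D4:**
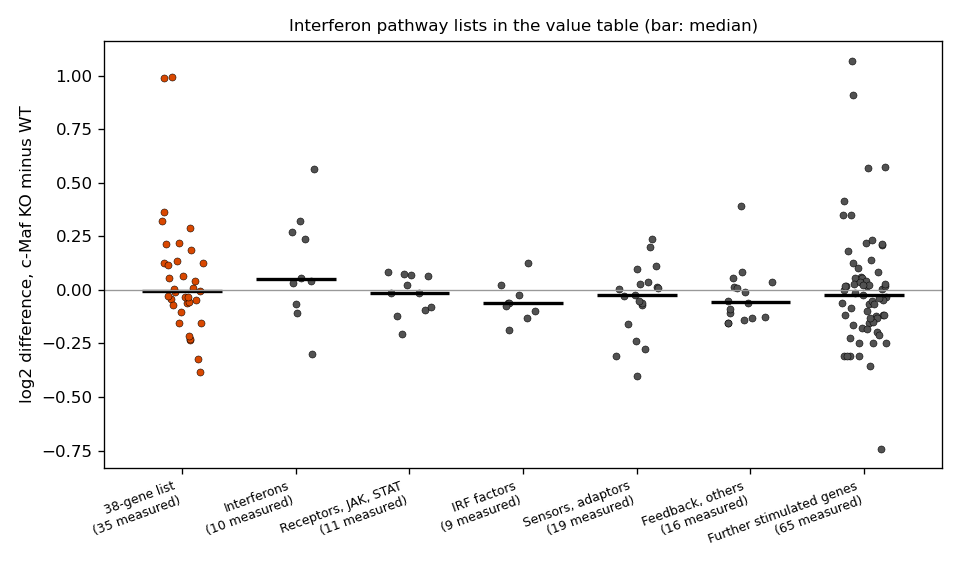
Log2 difference between c-Maf KO and WT (y axis) for each measured gene of the 38-gene list (orange) and of 6 pathway lists (grey), with a bar at the median. Every list is spread on both sides of 0, and the furthest genes are Ch25h, Oasl1, Ifi44 and Apol9b upward and Ifitm1 downward.

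Between 48.9% and 50.5% of probes on an array exceeded background clearly, 0 were saturated, and precision is limited by how few arrays there are. All 5 arrays shared a slide, with WT in one row and c-Maf KO in another, so position and genotype cannot be told apart. Markers of macrophages were measured for all 8 genes on the array. Their summed signal, in units of each array's 75th percentile, was 1123 to 1203 in WT and 1071 to 1163 in c-Maf KO. In all marker sums, the level of c-Maf KO replicate 1 was placed on this scale from its ratios, as no scanner file of it was used. The differences of the macrophage markers were negative for 7 of 8, with a median of -0.15, and none was called. Groups lay apart for 4 of them downward (50%) and 1 upward (12.5%), against 8.86% and 11.1% of all features. Of 10 stromal markers 9 were measured, all with positive differences and 8 with groups apart upward (88.9%, against 11.1% of all features), though none was called, and their sums were 105 to 182 in WT and 218 to 263 in c-Maf KO. The remaining one, Lum, was well above background on no array. The neutrophil markers, 8 of 8 measured, summed to 35.5 to 56.1 in WT and 30.01 to 42.9 in c-Maf KO. Their differences were negative for 7 of 8, with a median of -0.46, but the groups overlapped for all 8 and none was called. Their mean log2 ratios were -0.10, 0.012 and 0.70 in WT and -0.45, 0.31 and -0.45 in c-Maf KO. The monocyte marker measured, Ccr2, lay apart upward with a difference of 0.73 (adjusted p = 0.0776). Of 7 T and NK cell markers 2 were measured, with sums of 13.0 to 18.8 in WT and 15.0 to 17.9 in c-Maf KO, and Cd3g, Cd8a, Ncr1 and Klrb1c were well above background on no array. Of 4 B cell markers 2 were measured, both with negative differences. Groups lay apart for 1 of these 2 (50%, against 20% of all features), and Ms4a1 was well above background on no array. In bulk RNA, fewer cells of a type and less RNA per cell cannot be told apart, and the part of these markers in the other values was not tested.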

How the data were processed

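The authors' scanner files hold spot intensity values, extracted with Agilent Feature Extraction 10.7.3.1 per the submitters' processing notes; per the file headers, detrending was on, background correction off and surrogates allowed. Scanner files of 5 arrays were used; for replicate 1 of c-Maf KO only the value table was used here. The deposited value table holds linear ratios to each probe's median over the 6 samples (55821 probes), since the median log2 of each deposited ratio was 0 and the log2 ratios, centred over the 5 arrays, followed the scanner values (r = 1 on each array). Any floor the authors set on low ratios is not stated in the labels or headers.

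Control and outlier spots were left out, intensity was scaled to the array's 75th percentile, log2 was taken, and probes well above background on at least 2 arrays were kept, 1 per gene by highest mean signal. Differences were tested with limma 3.58.1 (R 4.3.3), lmFit and eBayes, with Benjamini-Hochberg adjustment over 20252 features, called at an adjusted p of 0.05. Gene names and mm9 coordinates are those of the files, and names given as accessions were updated through RefSeq. The fit was tested on simulated data. Genes were named as Maf, the 38 members, fixed pathway genes, and up to 3 of the largest differences per list among those whose samples lay apart. Some of the named genes are not reported here. The members, lists and rules were chosen with earlier results of these data known. No sign was seen that replicate numbers pair the samples, so the main fits did not pair them. WT replicates 1 and 3 share a tag in their file names and were kept apart in the main fits. They differed as much (SD of log2 differences 0.312) as the other WT pairs (0.309 and 0.312). Equal spread cannot show that any of the WT samples are independent. Alternatives covered background correction, scaling, filter, probe choice, variance model, the replicate block and leaving out each sample.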

Additional observations from a re-analysis of the deposited data

How the results depend on the processing

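None of the 35 genes was called under any alternative run. The median difference was higher with c-Maf KO replicate 3 left out, at 0.039 on the 5 arrays and 0.064 over the 6 samples; leaving out 1 sample at a time gave -0.078 to 0.039 and -0.050 to 0.064. The median turned sign under 1 of 13 alternatives on the 5 arrays and 4 of 11 over the 6 samples, which besides that sample were no filter (0.0052), no WT replicate 3 (0.025) and WT replicates 1 and 3 averaged (0.0071). Of the 35 genes, 25 kept their sign over the 6 samples in all alternatives run and 10 did not, which made 29 turned values of 420; on the 5 arrays 14 genes turned (33 of 488 values), among them Ifi27l2a, Ifit3, Isg15, Mx1, Oas2, Rsad2 and Zbp1. Without 1 sample the 6-sample difference turned or moved by over 1.5 times for 27 of 35 genes, the others being Bst2, Eif2ak2, Gbp2, Gbp3, Ifi35, Ifih1, Oas3 and Rtp4. Quantile normalization turned Oas1a to -0.013 and Parp9 to -0.078. The mean of a gene's probes turned Cmpk2 to 0.048 and Herc6 to -0.037. Averaging WT replicates 1 and 3 turned Cmpk2 to 0.024, Oas1a to -0.0065 and Usp18 to 0.0071. Leaving out 1 sample at a time gave ranges of -0.15 to 0.025 for Cmpk2, -0.11 to 0.00082 for Dhx58, -0.093 to 0.21 for Herc6, -0.23 to 0.26 for Ifit2, -0.051 to 0.056 for Oas1a, -0.14 to 0.047 for Oasl2, -0.22 to 0.27 for Parp9, -0.047 to 0.018 for Trim30a, -0.13 to 0.080 for Usp18 and -0.018 to 0.12 for Xaf1. The cause was not tested. Samples with the same replicate number had correlations of deviations of -0.028, -0.061 and 0.040, against -0.049 to 0.077 for different numbers. This gave no sign of pairing, but 3 samples per group cannot exclude it. The replicate block called 0 of the 35 genes. It gave medians of -0.068 on the 5 arrays, where WT replicate 1 has no partner and drops out, and -0.0063 over the 6 samples. With it the count of all called features went from 7 to 0 and from 7 to 3. That count also reached 80 and 83 with a trended, robust variance, where Apol9b was called over the 6 samples, and 22 with normexp; leaving out 1 sample gave 1 to 14 on the 5 arrays and 2 to 99 (without WT replicate 1) over the 6 samples, and averaging WT replicates 1 and 3 gave 1 and 2. The count without a filter was 2 in each estimate, and 1 with the filter on all 5 arrays. Signals near background limit Ifi44, Cxcl9, Apol9b, Ifit1, Cxcl10 and Ddx60. Mean intensity was also low for Ifit3 (37.1), Rsad2 (43.1), Ifit2 (43.7), Mx2 (44.9), Irf7 (52.2) and Ticam2 (58.0), against 39.0 for Apol9b. Their probes were well above background on all 5 arrays, unlike that of Apol9b, but low signal limits their values too.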
